A study of Arabidopsis thaliana with 16 samples.

Results

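HSP15.4 (AT4G21870) and HSP14.7 (AT5G47600) are 2 of the 11 measured members of a list of 19 Arabidopsis thaliana small heat shock protein genes, and 2 of the 22746 probe sets tested. For every gene list here, measured means that the probe annotation used gave the gene a probe set of its own. Listed genes without one may still be on the array, under probe sets that the annotation did not list or gave to several genes. They were chosen by their heat changes. Unlike most of the family in wild type (WT), they were not called raised after 1 h at 37 °C. Those changes are therefore given as values with no test. Each was measured by a single probe set that the probe annotation assigned to that locus alone, 254384_at for HSP15.4 and 248752_at for HSP14.7, and neither locus appeared under a probe set with several genes. In the RefSeq gene table of the TAIR10.1 assembly AT4G21870 lies between AT4G21865 and AT4G21880, and AT5G47600 between AT5G47590 and AT5G47610, with no overlap of their spans.

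Transcripts were measured on 16 Affymetrix arrays of RNA from whole seedlings aged 7 days, 2 arrays for each of 8 groups. The groups combined 4 genotypes with 2 conditions, growth at 22 °C throughout and 1 h in a water bath at 37 °C (called heat here). WT was Col-0, and hsfa2 was a Col-0 line without functional HSFA2. QK was a quadruple knockout of HSFA1a, HSFA1b, HSFA1d and HSFA1e whose background mixed Col-0 with Ws, and A2QK, for which the design text names a single line, expressed HSFA2 from the CaMV 35S promoter in QK. QK and A2QK therefore shared the loss of the 4 HSFA1 genes and the mixed background, and in a comparison with WT the background and the mutations cannot be told apart. Nothing in the labels says whether replicate arrays stem from independent cultures; the p-values therefore reflect variation among these arrays alone, and that variation may be technical.

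Small heat shock proteins are chaperones built around an alpha-crystallin domain. They bind unfolding proteins without using ATP and hold them until HSP70 and HSP100 chaperones refold them. Heat shock factors, among them HSFA1 and HSFA2 proteins, switch on many of their genes by binding heat shock elements in the promoters. HSFA1 factors act early in the response, and HSFA2, itself induced by heat, prolongs it. HSP15.4 and HSP14.7 carry the family's domain but belong to neither of the large cytosolic classes I and II.

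The levels are log2 values after RMA, the authors' background correction, normalization and probe summary, so a difference of 1 is a doubling. HSP15.4 gave a bright signal. At 22 °C its arrays read 8.30 and 7.52 in WT, 7.86 and 7.58 in hsfa2, 8.66 and 8.24 in QK, and 9.20 and 9.05 in A2QK, for numbers 1 and 2 of each group. After heat they read 8.74 and 7.21 in WT, 8.17 and 7.90 in hsfa2, 9.23 and 9.09 in QK, and 8.99 and 8.89 in A2QK. The WT arrays lay far apart at both temperatures, and all 4 A2QK arrays and both heated QK arrays lay above every WT and hsfa2 array.

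HSP14.7 gave a dim signal. Its arrays read 3.09 and 3.04 in WT, 2.18 and 2.21 in hsfa2, 3.19 and 3.37 in QK, and 3.67 and 4.22 in A2QK at 22 °C. After heat they read 2.90 and 3.22 in WT, 2.95 and 2.61 in hsfa2, 3.57 and 3.67 in QK, and 4.05 and 4.22 in A2QK. The 4 A2QK arrays were the highest of the 16 and the 2 unheated hsfa2 arrays the lowest. On those hsfa2 arrays between 2.44% and 2.86% of probe sets read lower than HSP14.7, and on the other arrays between 8.12% and 40.2% did, so its differences lie where RMA compresses signals and the files give no detection call.

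**Figure D1:**
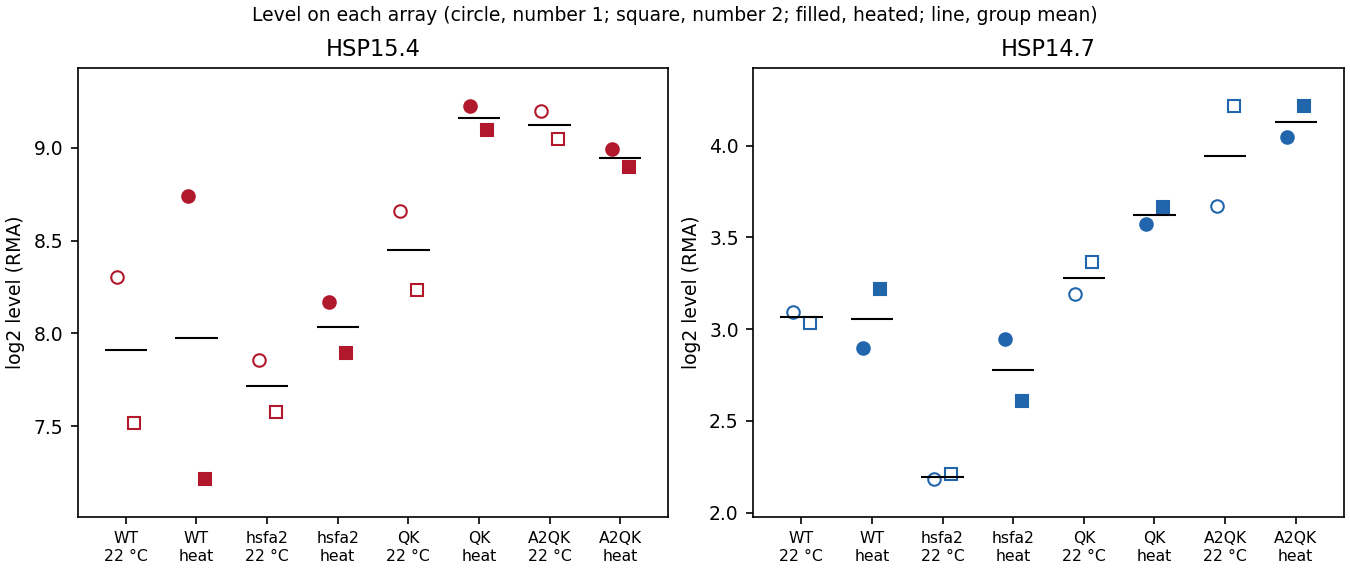
Log2 level of HSP15.4 (left) and HSP14.7 (right) on each of the 16 arrays, with circles for number 1, squares for number 2, filled symbols for heated seedlings and a line at each group mean. HSP15.4 ran from 7.21 to 9.23 and HSP14.7 from 2.18 to 4.22, and the A2QK arrays lay in the upper part of both panels.

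By group mean HSP15.4 was ordered, from the highest, as heated QK (9.16 ± 0.09, SD, n = 2), unheated A2QK (9.12 ± 0.10), heated A2QK (8.94 ± 0.07), unheated QK (8.45 ± 0.30), heated hsfa2 (8.03 ± 0.19), heated WT (7.98 ± 1.08), unheated WT (7.91 ± 0.55) and unheated hsfa2 (7.72 ± 0.20). The arrays of heated QK and unheated A2QK overlapped, and so did those of each pair of neighbours from heated hsfa2 down. Unheated and heated A2QK, heated A2QK and unheated QK, and unheated QK and heated hsfa2 did not overlap.

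HSP14.7 ran from heated A2QK (4.13 ± 0.12, SD, n = 2) and unheated A2QK (3.95 ± 0.39) through heated QK (3.62 ± 0.07), unheated QK (3.28 ± 0.12), unheated WT (3.07 ± 0.04) and heated WT (3.06 ± 0.23) to heated hsfa2 (2.78 ± 0.24) and unheated hsfa2 (2.20 ± 0.02). The A2QK groups overlapped each other, as did unheated and heated WT, and heated WT and heated hsfa2; the other neighbours did not. Genotypes thus stood in nearly the same order for both genes, with A2QK and heated QK above unheated QK and all WT and hsfa2 groups below. Across the 8 group means the genes correlated with r = 0.89 and across the 16 arrays with r = 0.71, while the deviations of arrays from their group means gave r = -0.39. These correlations are descriptions over arrays that share their normalization.

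Heat changed HSP15.4 in WT by 0.07 ± 0.40 (log2 difference ± SE of the fit, as for all differences here) and HSP14.7 by -0.0078 ± 0.20. The 2 WT pairs went opposite ways for each gene: within number 1 and number 2 the change was 0.44 and -0.30 for HSP15.4 and -0.20 and 0.18 for HSP14.7. Single arrays set the sign in WT: the HSP15.4 change was -0.70 without WT heat replicate 1, 0.83 without WT heat replicate 2 and -0.32 without WT 22 °C replicate 2, and the HSP14.7 change ran from -0.17 to 0.15 over the 4 WT arrays left out in turn. In hsfa2 both heated arrays lay above both unheated ones for both genes, with changes of 0.32 ± 0.40 for HSP15.4 and 0.58 ± 0.20 for HSP14.7. HSP14.7 started there from its lowest level and ended, at 2.78, still below the WT mean.

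In QK too the heated arrays lay above the unheated ones for both genes, by 0.71 ± 0.40 for HSP15.4, or 1.64-fold, and by 0.34 ± 0.20 for HSP14.7. In A2QK the heated HSP15.4 arrays lay below the unheated ones, by -0.18 ± 0.40. With array medians set equal the value was 0.02, beside a median of 0.19 over all probe sets, and repeated quantile normalization gave -0.24. HSP14.7 gave 0.19 ± 0.20 in A2QK with overlapping arrays, or -0.09 without A2QK 22 °C replicate 1. Over all probe sets and the 4 genotypes neither gene was called raised by heat in the fit, which is how the pair was chosen and is not a finding. The heat change of HSP15.4 in A2QK minus that in QK was -0.89 ± 0.56, and the heat change of HSP14.7 in hsfa2 minus that in WT was 0.59 ± 0.28; both hold a heat change and carry no test.

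The other 9 measured family members show what the heat treatment did on the same arrays. In WT 8 of the 9 were called raised at an adjusted p under 0.05, against 3.31% of all probe sets, with a median change of 8.12 beside 0.0074 over all probe sets. They were HSP17.6B and HSP17.6C of cytosolic class I, HSP17.4III of class III, HSP18.5, the peroxisomal HSP15.7, HSP22 of the endoplasmic reticulum and the mitochondrial HSP23.5 and HSP26.5. Their changes ran from 4.60 for HSP18.5 to 9.99 for HSP17.6C. The exception was HSP21.7 (AT5G54660), which changed by -0.09 in WT, from 6.05 to 5.96, so that 3 of the 11 measured genes were not called. HSP21.7 is not one of the chosen pair and was singled out after its values were seen.

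In hsfa2 8 of the 9 were again called raised, against 5.61% of all probe sets, and HSP21.7 gave 0.38. In QK 0 of the 9 passed, against 2.52% of all probe sets, with a median of 2.19; by limma 6 of them were positive at an unadjusted p under 0.05, as were 8.55% of all probe sets, and 7 passed the adjusted threshold without QK heat replicate 1. The heated QK arrays lay far apart for most of the family, HSP17.6C reading 3.54 and 9.50, with SDs of 1.01 to 4.22 over the 8 genes other than HSP21.7. On the same arrays HSP15.4 and HSP14.7 had SDs of 0.09 and 0.07. In A2QK 5 of the 9 were called raised, against 6.59% of all probe sets, and 8 without QK heat replicate 1 or without QK heat replicate 2, whose spread enters every error of the fit.

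**Figure D2:**
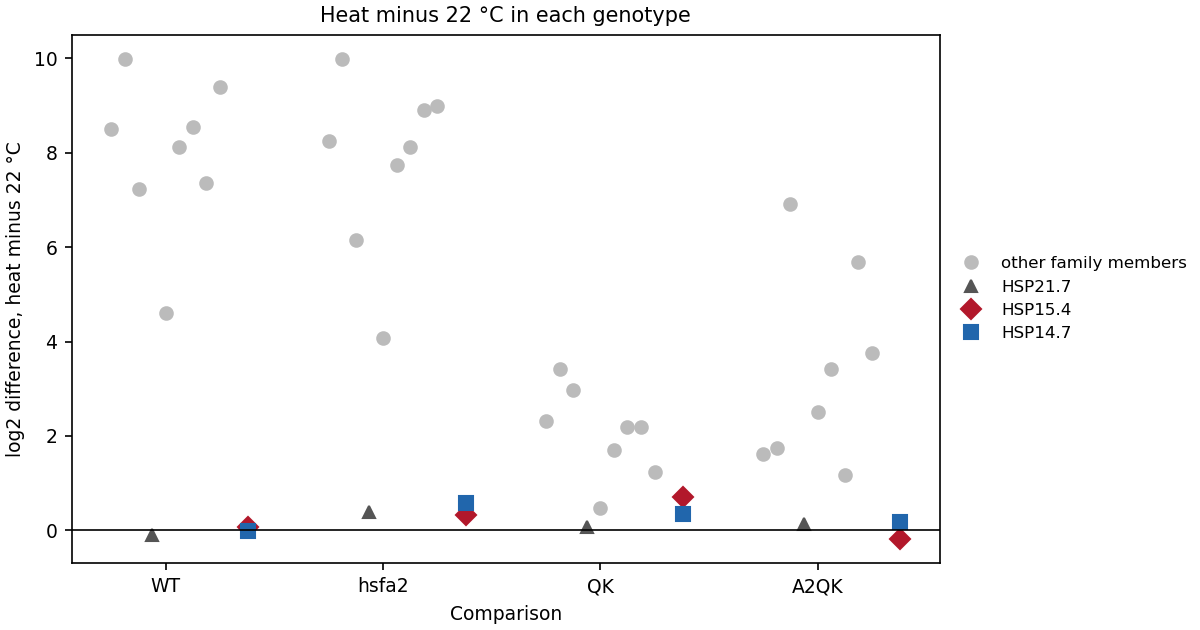
Log2 difference between heat and 22 °C in each genotype for the 11 measured small heat shock protein genes, with HSP15.4 as red diamonds, HSP14.7 as blue squares, HSP21.7 as dark triangles and the other 8 genes in grey. In WT the grey points lie between 4.60 and 9.99, and HSP15.4, HSP14.7 and HSP21.7 lie at 0.07, -0.0078 and -0.09.

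Whether the levels depended on genotype was tested with limma over all probe sets. The choice of the pair rested on heat changes and not on genotype comparisons, but the same heated and unheated arrays entered both. Small heat changes in 2 genotypes make their difference at 22 °C and their difference after heat alike. The tests are thus not independent of the choice, and the 2 temperatures are not separate results. Loss of HSFA2 was accompanied by a lower HSP14.7 signal at 22 °C, 2.20 ± 0.02 against 3.07 ± 0.04 in WT (SD, n = 2). The difference was -0.87 ± 0.20 (95% interval -1.30 to -0.44, adjusted p = 0.0217). Within number 1 and number 2 it was -0.91 and -0.83. Array deviations by number correlated with r = 0.03 between these groups, so the 2 values are not taken as matched pairs. With the hsfa2 arrays near the bottom of the scale and no detection call, the size of the HSP14.7 difference as a fold is not given. The comparison called 7.9% of all probe sets, and 0 of the 9 other family members passed it by limma, or had an unadjusted p under 0.05. That count does not set HSP14.7 apart, since HSP23.5 (-1.71) and HSP17.4III (1.31) differed by more. Their errors in the fit take in the spread of the heated QK arrays, with SDs of 2.77 and 2.74 for these genes and 0.07 for HSP14.7. The call was lost without any of the 4 arrays of the comparison (WT 22 °C replicate 1 and 2, hsfa2 22 °C replicate 1 and 2; adjusted p = 0.0632 to 0.115) and with those 4 arrays fitted alone (adjusted p = 0.128).

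After heat HSP14.7 differed between hsfa2 and WT by -0.28 ± 0.20 (95% interval -0.71 to 0.15, adjusted p = 0.428), with overlapping arrays and with 0.05 and -0.61 within number 1 and number 2. It was -0.44 and -0.12 without WT heat replicate 1 and 2, and -0.45 and -0.11 without hsfa2 heat replicate 1 and 2. HSP15.4 gave -0.19 ± 0.40 at 22 °C (interval -1.07 to 0.68, adjusted p = 0.831) and 0.06 ± 0.40 after heat (interval -0.82 to 0.93, adjusted p = 0.953). Neither gene was called after heat, where 8.01% of all probe sets were. The sign for HSP15.4 followed single arrays: at 22 °C the difference was 0.20 without WT 22 °C replicate 1, and after heat it was -0.71 without WT heat replicate 2 and -0.08 without hsfa2 heat replicate 1.

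In QK, without the 4 HSFA1 factors, both genes read higher than in WT at both temperatures, and neither was called. At 22 °C the difference was 0.54 ± 0.40 for HSP15.4 (interval -0.34 to 1.41, adjusted p = 0.727) and 0.21 ± 0.20 for HSP14.7 (interval -0.22 to 0.65, adjusted p = 0.816), where 2.19% of all probe sets were called. The HSP15.4 value was 0.93 and 0.15 without WT 22 °C replicate 1 and 2 and 0.33 without QK 22 °C replicate 1, and the HSP14.7 value was 0.13 without QK 22 °C replicate 2. After heat the QK minus WT difference was 1.18 ± 0.40 for HSP15.4 (interval 0.31 to 2.06, adjusted p = 0.11) and 0.56 ± 0.20 for HSP14.7 (interval 0.13 to 1.00, adjusted p = 0.126), where 7.5% of all probe sets were called. Both heated QK arrays lay above both heated WT arrays for each gene. Within number 1 and number 2 HSP15.4 differed by 0.49 and 1.88, and HSP14.7 by 0.68 and 0.45. WT and QK arrays of the same number deviated together: with the number as a block over the 8 WT and QK arrays neither gene was called after heat (adjusted p = 0.068 for HSP15.4 and 0.0699 for HSP14.7), and with a block over all 16 arrays HSP15.4 was (adjusted p = 0.03).

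The heated WT arrays set the size of the HSP15.4 difference: it was 1.95 without WT heat replicate 1, where it was called (adjusted p = 0.0035), and 0.42 without WT heat replicate 2. Of the 9 other family members 8 were called lower in heated QK than in heated WT, as were 758 of the 22746 probe sets. The median of the 9 was -6.39, beside 0.01 over all probe sets. HSP21.7 gave -0.52 and did not pass. The 9 ran from -7.47 to -0.52, beside 1.18 for HSP15.4 and 0.56 for HSP14.7. The 8 lower genes are those that heat raised in WT, and the pair was chosen for not being raised there, so the gap between them follows in large part from the choice and is no separate finding.

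Adding HSFA2 to QK raises the question of whether this factor moves the pair without HSFA1. At 22 °C HSP14.7 read 3.95 ± 0.39 in A2QK and 3.28 ± 0.12 in QK (SD, n = 2), a difference of 0.67 ± 0.20 that did not pass (interval 0.23 to 1.10, adjusted p = 0.0597). It passed without A2QK 22 °C replicate 1 (0.94, adjusted p = 0.0432) and was 0.39 without A2QK 22 °C replicate 2 (adjusted p = 0.422). HSP15.4 differed by 0.68 ± 0.40 (interval -0.20 to 1.55, adjusted p = 0.365). For both genes each A2QK array lay above each QK array, and neither was among the 9.09% of probe sets called.

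Of the 9 other family members 6 were called higher in unheated A2QK than in unheated QK, as were 1176 of the 22746 probe sets. Their median was 4.41 for the 9, beside 0.0039 over all probe sets. The count was 7 with a replicate block over all 16 arrays, and it moved when single arrays were left out. HSP17.6C, which was among the 6, differed by 8.13, and HSP21.7, at 0.56, was among the 3 that did not pass. HSP15.4 and HSP14.7 thus had values of the size of that of HSP21.7.

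After heat the A2QK minus QK difference was -0.22 ± 0.40 for HSP15.4 (interval -1.09 to 0.66, adjusted p = 0.806) and 0.51 ± 0.20 for HSP14.7 (interval 0.08 to 0.94, adjusted p = 0.127). Each HSP15.4 array of heated A2QK lay below each of heated QK, the opposite order to that at 22 °C, whereas HSP14.7 kept its order. Neither was called, against 12.3% of all probe sets called in either direction. Of the 9 other family members 9 were called higher, by 0.64 for HSP21.7 up to 7.64 for HSP26.5, as were 1410 of the 22746 probe sets. Not all of these family calls held when single arrays were left out.

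**Figure D3:**
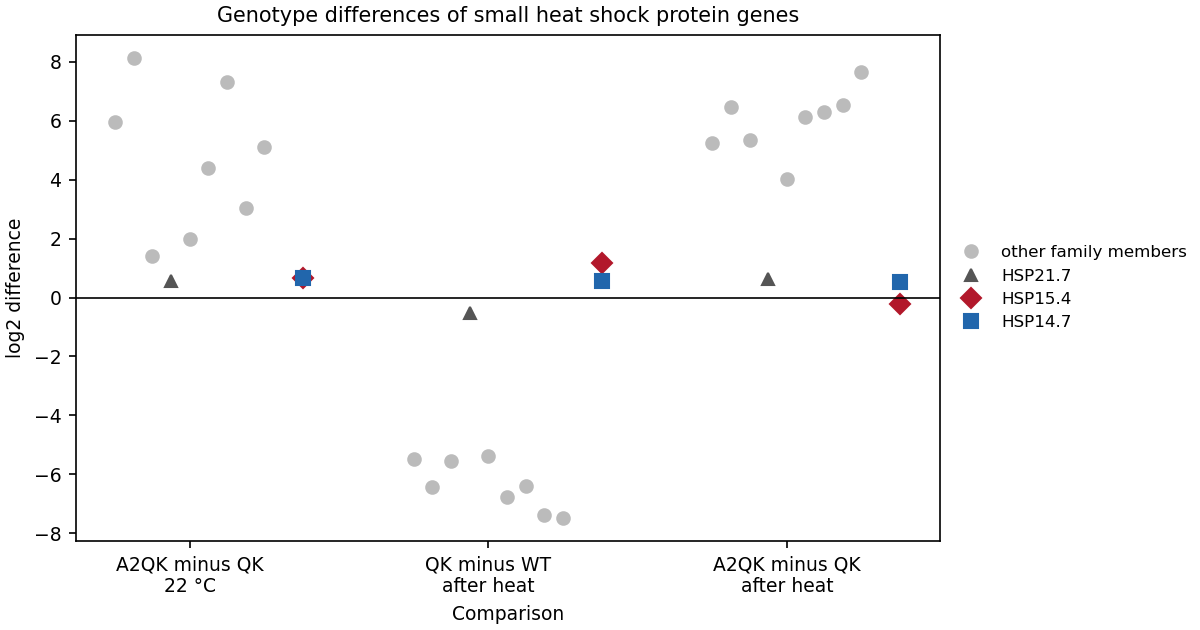
Log2 differences between genotypes for the 11 measured small heat shock protein genes, with symbols as red diamonds for HSP15.4, blue squares for HSP14.7, dark triangles for HSP21.7 and grey points for the other 8. In heated QK minus heated WT the grey points lie at -5.37 and below, and HSP15.4 and HSP14.7 lie at 1.18 and 0.56.

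Against WT, A2QK held more HSP14.7 signal at both temperatures, which are not separate results, since the pair was chosen for its heat changes. At 22 °C the difference was 0.88 ± 0.20 (interval 0.45 to 1.31, adjusted p = 0.017). Within number 1 and number 2 it was 0.58 and 1.18. Array deviations by number correlated with r = 0.11 between these groups, so the 2 values are not taken as matched pairs. The call was lost without WT 22 °C replicate 2 (0.85, adjusted p = 0.0686), without A2QK 22 °C replicate 2 (0.61, adjusted p = 0.165) and with the 4 arrays fitted alone (adjusted p = 0.148). After heat the difference was 1.07 ± 0.20 (interval 0.64 to 1.51, adjusted p = 0.00431), with 1.15 and 1.00 within number 1 and number 2, and the call held without each of the 16 arrays in turn (adjusted p = 0.00307 to 0.0458).

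HSP15.4 read 1.21 ± 0.40 above WT in unheated A2QK (interval 0.34 to 2.09, adjusted p = 0.0801) and 0.97 ± 0.40 above it in heated A2QK (interval 0.09 to 1.84, adjusted p = 0.16). It did not pass at either temperature, although no A2QK array overlapped a WT array. Within number 1 and number 2 the 22 °C difference was 0.89 and 1.53, and the heated one 0.25 and 1.68. The 22 °C difference of 1.21 passed without WT heat replicate 1 or 2 (adjusted p = 0.0129 each), arrays that enter it only through the spread. The difference after heat passed without WT heat replicate 1 (1.73, adjusted p = 0.00655) and was 0.20 without WT heat replicate 2.

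These comparisons called 10.3% of all probe sets at 22 °C and 11.5% after heat, in either direction. Of the 22746 probe sets, 1403 were called higher at 22 °C, and 1509 higher and 1110 lower after heat. Of the 9 other family members 5 were called higher in A2QK at 22 °C, with a median of 4.06. After heat 0 were called higher by limma, with 0 also at an unadjusted p under 0.05, and 1, HSP18.5, was called lower (-1.34), with a median of -0.20. Beside 1.07 for HSP14.7 and 0.97 for HSP15.4, the 9 ran from -1.34 to 0.17 after heat; the bright end levels of heated family members, near 12 for most, lie close to the top of the arrays' scale.

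**Figure D4:**
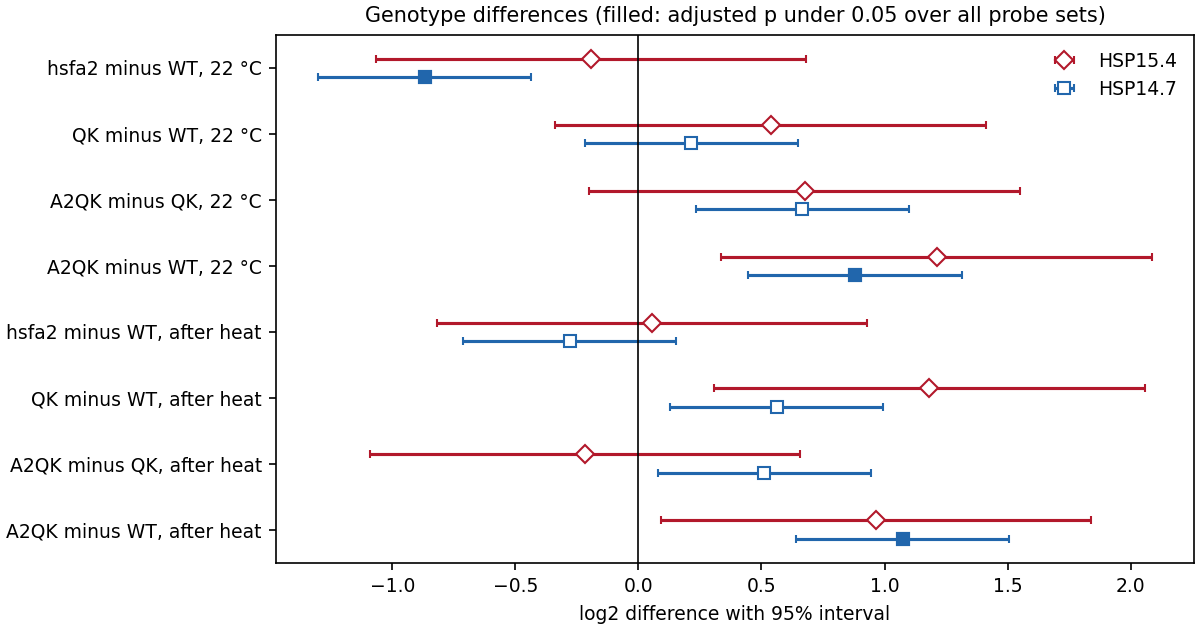
Log2 differences between genotypes for HSP15.4 (red diamonds) and HSP14.7 (blue squares) with 95% intervals of the fit over 16 arrays, filled where the adjusted p over all probe sets was under 0.05. The filled points are HSP14.7 in hsfa2 minus WT at 22 °C (-0.87) and in A2QK minus WT at 22 °C (0.88) and after heat (1.07).

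The genes with the most similar patterns were sought among the other 13512 probe sets with a single gene, by Pearson correlation over the 16 arrays. For HSP15.4 they were AT4G17010 (r = 0.90), AT4G08220 (0.88), AT2G01540 (0.88), RD2 (AT2G21620, 0.88) and AT2G45060 (0.86). Their deviations from group means also followed those of HSP15.4, with r of 0.76 to 0.91. Both the group levels and the gaps between the 2 arrays of a group thus enter this likeness. The 5 genes were chosen on these same arrays, so the likeness within groups follows in part from the choice. With 2 arrays per group, the 2 deviations of a group mirror each other. All 5 had their highest or second highest group mean in heated QK. AT4G17010, for instance, went from 4.96 in unheated WT to 5.71 in heated QK, a narrower range than that of HSP15.4.

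For HSP14.7 the closest was bZIP44 (AT1G75390, r = 0.92), which encodes a basic leucine zipper transcription factor. Its group means were lowest in unheated hsfa2 (6.70) and highest in heated A2QK (8.20), as for HSP14.7, but its deviations from group means correlated with those of HSP14.7 by r = -0.23. AT1G18180 (0.86), AT4G39570 (0.85), AT2G21820 (0.84) and AT3G15090 (0.84) followed. AT2G21820 covered a far wider range, from 2.93 in unheated WT to 10.54 in heated A2QK. With heat it went from 2.93 to 5.58 in WT and from 7.30 to 10.54 in A2QK, where HSP14.7 changed by -0.0078 and 0.19. Its deviations from group means gave r = 0.10 with those of HSP14.7, and AT1G18180, AT4G39570 and AT3G15090 gave 0.54 to 0.64. These correlations describe arrays that share normalization and genotype background.

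**Figure D5:**
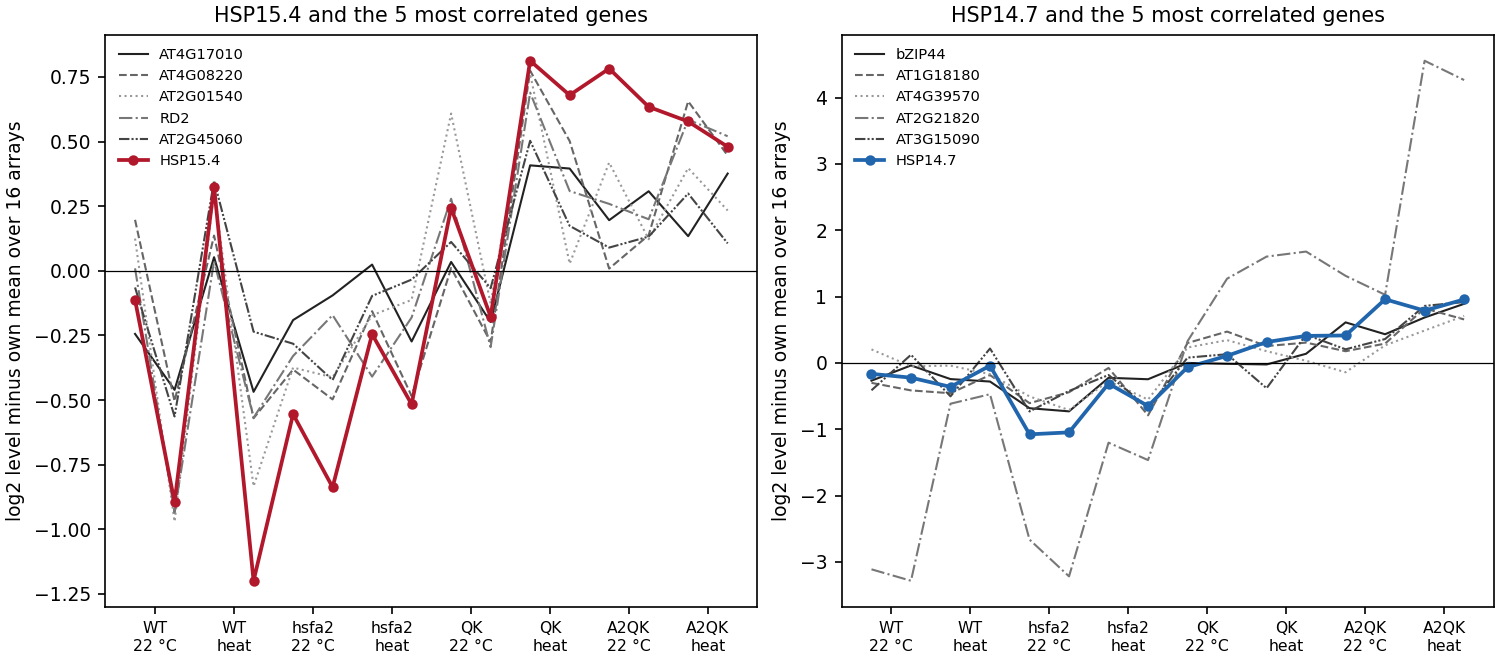
Log2 level minus the gene's own mean over the 16 arrays for HSP15.4 (left, red) and HSP14.7 (right, blue) with the 5 genes of highest Pearson correlation in grey, arrays in pairs by group, number 1 then number 2. HSP15.4 and its 5 companions read lower on number 2 than on number 1 in both WT groups, and AT2G21820 spans a wider range than HSP14.7.

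On whole-series checks, the 4 measured genes of a heat-treatment list, HSA32, ROF2, FES1A and HOP3, rose by 4.93 to 7.34 in WT. In QK HSA32 rose by 1.03 and was called raised, as were 2.52% of all probe sets. The 3 others gave larger changes there, 1.44 to 2.53, and did not pass. The leaf marker RCA read 12.2 to 13.1 on all arrays, and the root hair expansins EXPA7 and EXPA18 read 3.69 to 6.85. Both root markers read lower with heat in all 4 genotypes, EXPA7 by -0.85 to -1.68 and EXPA18 by -1.27 to -1.97, and their part in the heat values of the pair was not tested. RCA, EXPA7 and EXPA18 were 1 of 8 leaf and 2 of 7 root markers to which the probe annotation gave a probe set of their own, and 0 of 8 seed markers had one. The remaining markers may be on the array without being listed. The disrupted and added genes themselves are not analysed here. Array medians ran from 4.87 to 5.20, and replicate arrays had r of 0.959 to 0.995 over probe sets.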

How the data were processed

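The authors deposited log2 values made with RMA, per the submitters' processing notes. Its version, the chip definition and the set of arrays it was run on are not given in the sources used. RMA gives arrays a similar distribution, which reduces shifts shared by most transcripts and compresses dim signals. The file holds 22810 probe sets; without its 64 controls, 22746 entered the tests: 13513 were listed with a single gene, 503 with several genes and 8730 not listed. The model (lmFit and eBayes of limma 3.58.1, run under R 4.3.3) had a mean per group over all 16 arrays, leaving 8 residual and 3.37 prior degrees of freedom. Adjusted p-values are limma's two-sided values with Benjamini-Hochberg adjustment within a comparison over all probe sets, called at 0.05. Intervals are 95% intervals of this fit. The script was tested on simulated data. The number of arrays, 2 per group, limits the precision.

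The members, the family list and the marker lists were chosen with earlier results of these data known. Named were the members, the measured family and, per member, the 5 single-gene probe sets of highest Pearson correlation. Alternatives were equal array medians, repeated quantile normalization, an intensity trend, the compared groups alone, a minimum mean of 4, a replicate block and each array left out. Of array deviations by replicate number, the 6 pairs among the WT and QK groups correlated (r = 0.53 to 0.79), and the other 22 pairs gave r of -0.02 to 0.15. The labels do not say what WT and QK arrays of the same number shared.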

Additional observations from a re-analysis of the deposited data

Results flagged for a closer look

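The heated and unheated HSP15.4 arrays stood in opposite order between genotypes. Both heated arrays lay above both unheated arrays in hsfa2 (0.32 ± 0.40) and in QK (0.71 ± 0.40), and both lay below in A2QK (-0.18 ± 0.40). The SE exceeded the change in hsfa2 and in A2QK, so the direction there is not settled. The difference between genotypes was not tested, since the gene was chosen for its heat change. With array medians set equal the A2QK value became 0.02 against a median of 0.19 over all probe sets.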

How the results depend on the processing

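Over the 16 genotype differences (8 comparisons of each gene), 329 of 348 alternatives kept direction and call. Most left-out arrays lay outside the 2 groups compared, so the difference itself could not change. The intensity trend, the block, the compared groups alone and the minimum mean also left it unchanged. The count is therefore no measure of stability. With a replicate block over all 16 arrays, HSP15.4 in A2QK minus WT at 22 °C (1.21, adjusted p = 0.0229) and in QK minus WT after heat (1.18, adjusted p = 0.03) and HSP14.7 in A2QK minus QK at 22 °C (0.67, adjusted p = 0.0455) passed. Arrays of the same number deviated together mainly within WT and QK, where the block over those 8 arrays changed no call (HSP15.4 after heat, adjusted p = 0.068, and HSP14.7 after heat, adjusted p = 0.0699). With only the 2 groups compared, HSP14.7 lost its calls at 22 °C in hsfa2 minus WT (-0.87, adjusted p = 0.128) and A2QK minus WT (0.88, adjusted p = 0.148).

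Leaving out each array moved HSP15.4 from -0.58 to 0.20 in hsfa2 minus WT and from 0.82 to 1.60 in A2QK minus WT at 22 °C. After heat it moved from -0.71 to 0.82 in hsfa2 minus WT (with -0.08 without hsfa2 heat replicate 1), from 0.42 to 1.95 in QK minus WT and from 0.20 to 1.73 in A2QK minus WT. HSP14.7 moved at 22 °C from -0.90 to -0.84 in hsfa2 minus WT, from 0.39 to 0.94 in A2QK minus QK and from 0.61 to 1.15 in A2QK minus WT. The QK minus WT range at 22 °C was 0.15 to 0.93 for HSP15.4 and 0.13 to 0.30 for HSP14.7, and HSP14.7 in hsfa2 minus WT after heat ran from -0.45 to -0.11. Heat changes of HSP15.4 ran from -0.70 to 0.83 in WT, 0.17 to 0.46 in hsfa2, 0.50 to 0.92 in QK and -0.25 to -0.11 in A2QK, and those of HSP14.7 from -0.17 to 0.15, 0.41 to 0.75, 0.25 to 0.43 and -0.09 to 0.46. A lone array left in a group was assumed to vary like the other groups.

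Equal array medians moved the median heat change of all probe sets to 0.14 in WT, 0.21 in hsfa2 and 0.19 in A2QK, and that of genotype differences to -0.11 for A2QK minus WT at 22 °C, 0.12 for hsfa2 minus WT and -0.13 for QK minus WT after heat. HSP14.7 in heated WT then read 0.13 above unheated WT, near that median, and its hsfa2 heat change was 0.77. The minimum mean of 4 removed HSP14.7, so it gave no value there. The counts for the other family members were recomputed under alternatives chosen after seeing the data. The 8 calls in WT stayed at 8 in all 19 of them, and the 0 in QK became 1 with the block and 7 without QK heat replicate 1. HSP14.7 is dim on all arrays, and this limits what its differences show.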

Other observations

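HSP15.4 read higher on the number 1 array than on the number 2 array in 8 of 8 groups, by 0.10 to 1.53 with a median of 0.28. The same held for 1.93% of all probe sets, and 1.37% were higher on number 1 in none of the groups. HSP14.7 was higher on number 1 in 2 of 8 groups. The pooled SD of HSP15.4 within groups, 0.46, was exceeded by 9.86% of probe sets, and that of HSP14.7, 0.19, by 64.1%. What the numbers stand for was not tested.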
